A study of Rattus norvegicus with 6 samples.

Results

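The transcription factors considered here set and maintain the identity of microglia and other macrophages. The rule named 9 genes, Spi1, Cebpa, Cebpb, Cebpd, Maf, Runx1, Mef2c, Bhlhe40 and Bhlhe41, and their rows were taken by gene name from the 6 tables of total read counts. Of these, 8 were analysed among 23139 listed genes, and Cebpa was not analysed here. All 8 passed the filter on low counts, together with 11977 genes in all, and the lowest count of any of them in a library was 63.

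Both groups consisted of primary microglia from the cortex of Wistar rats at postnatal day 1, which were shaken off mixed cultures, sorted with CD11b/c microbeads and stimulated with 100 ng/mL lipopolysaccharide (LPS, a bacterial cell wall component that activates these cells). The first group received LPS with the solvent DMSO (called LPS below) and the second LPS with 50 µM siponimod, a modulator of sphingosine 1-phosphate receptors (LPS/siponimod), with 3 libraries each, which the study's methods call biological replicates. Unstimulated cells and siponimod without LPS were not analysed here. The study's methods name stimulation times of 1 and 3 days, but not which of them applied to the sequenced libraries. Whether same-numbered libraries shared a preparation is not stated in the sources used here. The libraries held between 38080379 and 46643859 counts.

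PU.1, the product of Spi1, is the ETS family factor that opens and marks macrophage enhancers, usually together with C/EBP factors, RUNX1 and interferon regulatory factors. MAF and MEF2C are linked to the resting state of tissue macrophages and microglia, C/EBPβ and C/EBPδ to acute inflammatory gene expression, and the basic helix-loop-helix repressors BHLHE40 and BHLHE41 to macrophage self-renewal, cytokine control and the circadian clock. The question was which of these genes differed in level between LPS/siponimod and LPS.

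The clearest change was that of Bhlhe40, which rose 29.3-fold. Cebpb also rose, by 1.94-fold, and Maf fell, with a level 2.99-fold lower. Spi1 itself stood at 489 ± 14.7 CPM (counts relative to library size, scaled by the TMM method, mean ± SD, n = 3) with LPS and 349 ± 73.3 CPM with LPS/siponimod and did not pass the thresholds for a differentially expressed gene (DEG), an adjusted p of at most 0.05 in edgeR's quasi-likelihood test over all 11977 genes and a fold change of at least 1.5. Thus 3 of the 8 genes were DEGs, against 25.3% of all genes tested. By direction, 2 of 8 were higher, against 13.6% of all genes, and 1 of 8 was lower, against 11.7%. The median log2 fold change (FC, LPS/siponimod against LPS) was -0.25 over the 8 genes and -0.02 over all genes tested. With the replicate number as a block in the model, 6 of the 8 were DEGs, 3 in each direction, and 34% of all genes were. Without both libraries numbered 3, a choice made after seeing the data, only Bhlhe40 of the 8 remained a DEG, and 19.3% of all genes were.

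Before the single genes, the libraries were checked against markers of cell types. The 12 markers of microglia and macrophages summed to 8596, 7030 and 4726 CPM in LPS replicates 1, 2 and 3, and to 3858, 4621 and 2798 CPM in LPS/siponimod replicates 1, 2 and 3, with Csf1r as the gene with most counts in this list. Of these 12, 3 were lower DEGs (Aif1, Itgam and Cx3cr1) and 1 was a higher DEG (Sall1), where 11.7% of all genes were lower and 13.6% higher. The homeostatic markers Cx3cr1 and P2ry12 had few counts, 69, 202 and 35 and 585, 607 and 43 with LPS, respectively, and 3, 21 and 4 and 18, 106 and 13 with LPS/siponimod. LPS replicate 3 stood apart from the other LPS libraries. Its 6 neuronal markers summed to 24.8 CPM, against 1.75 and 1.04 CPM in replicates 1 and 2, and its 9 markers of the oligodendrocyte lineage to 36.04 CPM, against 5.37 and 5.37 CPM. LPS/siponimod replicate 3 had 19.9 and 22.6 CPM for these lists, against 4.39 and 5.76 CPM and 11.4 and 10.3 CPM in replicates 1 and 2. Over all libraries the genes with most counts were Tubb3 among the neuronal markers and Mbp in the oligodendrocyte list, but in LPS replicate 3 they were Gap43 and Olig1. Gap43 had 3, 1 and 503 counts under LPS, compared with 1, 0 and 204 under LPS/siponimod. Olig1 had 1, 5 and 515 counts under LPS, compared with 2, 3 and 17 under LPS/siponimod, whereas Mbp was not higher in LPS replicate 3 (149, 161 and 84 counts under LPS). Mbp was the 1 higher DEG among the 3 oligodendrocyte lineage genes with enough counts to be tested, and Tubb3, the only neuronal marker tested, was not a DEG but became a higher one with the replicate block (log2 FC 1.59, adjusted p = 0.0316). Markers of lymphocytes summed to at most 0.112 CPM in any library, with Cd79a as the gene with most counts and no count for Cd3e and Cd3g. Granulocyte markers summed to at most 3.34 CPM, mostly S100a8, which was a lower DEG, and Mpo, Elane and Ltf had no count. The astrocyte list summed to between 24.2 and 59.6 CPM, led by Slc1a3, with 1 lower DEG (Aldoc) of 4 tested. The fibroblast and pericyte list summed to between 3.98 and 11.9 CPM, with 1 higher DEG (Dcn, its gene with most counts) of 5 tested. The endothelial list lay between 24.4 and 202 CPM, mostly from Cdh5, with no DEG among 3 tested and no count for Kdr, and with the block Cdh5 (log2 FC -1.48, adjusted p = 0.0142) and Pecam1 (-2.40, adjusted p = 0.00966) were lower DEGs. The part of these other cell types in the results was not tested. In bulk RNA, fewer cells of a type and less RNA per cell cannot be told apart.

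**Figure D1:**
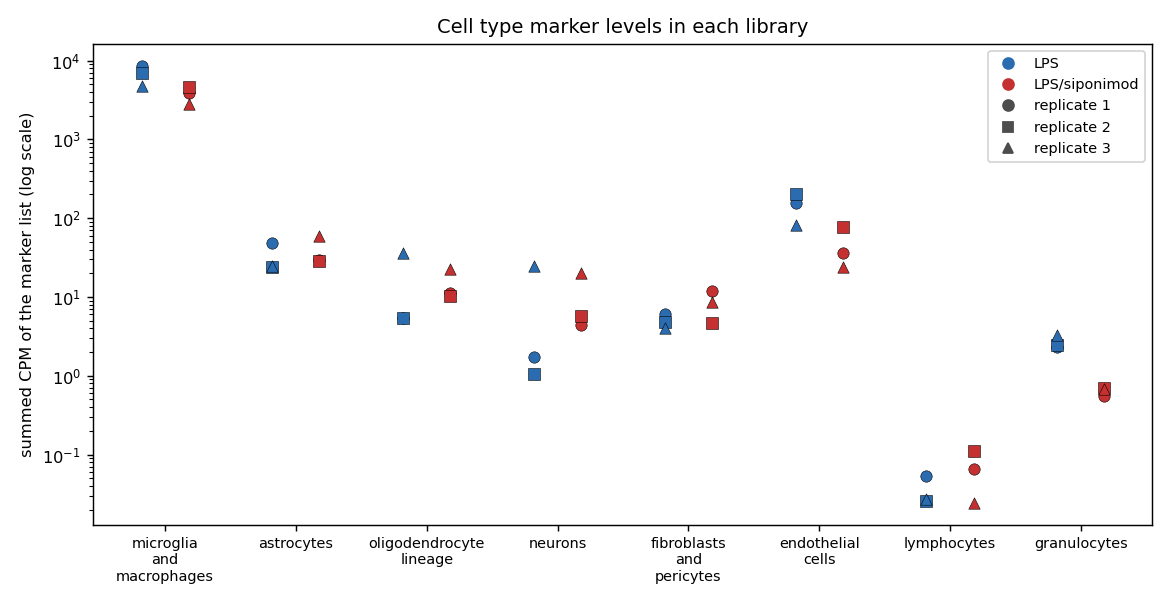
Summed CPM (vertical axis, log scale) of 8 lists of cell type markers, with 1 point per library (LPS in blue, LPS/siponimod in red, symbols for replicates 1 to 3). The triangles of replicate 3 stand above the other LPS libraries for neuronal and oligodendrocyte lineage markers (24.8 and 36.04 CPM), far below the microglia and macrophage list (4726 CPM in that library).

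Spi1 was the member with the most even level among LPS libraries. Its CPM was 473, 501 and 494 in LPS replicates 1, 2 and 3 and 356, 419 and 273 in LPS/siponimod replicates 1, 2 and 3. All 3 LPS/siponimod libraries therefore lay below all 3 LPS libraries, and the spread was wider with siponimod. The log2 FC was -0.49 (SE 0.19, 95% confidence interval from -0.94 to -0.03, adjusted p = 0.097). A change at least as large in either direction was fitted for 51.6% of all genes tested. In the pairs of same-numbered libraries the difference in log2 CPM was -0.41, -0.26 and -0.86. Spi1 was not a DEG with the replicate block either (log2 FC -0.51, SE 0.18, adjusted p = 0.076). The 5 genes whose log2 CPM followed that of Spi1 most closely over the 6 libraries were Abitram, Baiap2l2, AABR07030729.1, Rps6kb2 and Ice2, with Pearson correlations from 0.989 to 0.996, which describe 6 points that share 2 conditions. None of the 5 was a DEG.

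Runx1, which encodes the DNA-binding partner of CBFβ and takes part in blood cell specification, showed no common direction. It had 46.0, 42.8 and 28.6 CPM under LPS, compared with 31.7, 39.8 and 44.6 CPM under LPS/siponimod. The groups overlapped fully, since LPS replicate 3 was lower and LPS/siponimod replicate 3 higher than most of the others. The fitted log2 FC was -0.02 (SE 0.22, adjusted p = 0.96), with a 95% confidence interval from -0.55 to 0.52. The pair differences were -0.53, -0.11 and 0.64. Runx1 was the only one of the 8 genes whose sign differed between pairs, and the other 7 moved the same way in all 3 pairs, as did 8481 of all genes tested (70.8%).

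The 2 C/EBP genes analysed went in opposite directions. Cebpb, which encodes a basic leucine zipper factor that activates acute phase and cytokine genes, had 106, 68.8 and 98.4 CPM in LPS replicates 1, 2 and 3 and 221, 140 and 168 CPM in LPS/siponimod replicates 1, 2 and 3. Each LPS/siponimod library was above every LPS library, and the 3 pair differences (1.06, 1.03 and 0.77) were similar in size. The mean rose from 91.2 ± 19.8 to 176 ± 41.4 CPM (SD, n = 3 each), a log2 FC of 0.95 with SE 0.24 and an adjusted p of 0.0321. This call was lost in 4 of the 6 fits that left out 1 library, namely LPS replicate 1 (adjusted p = 0.0556) or 2 (0.103) and LPS/siponimod replicate 1 (0.114) or 3 (0.0846), with log2 FCs from 0.75 to 1.10 throughout. With the block the log2 FC was also 0.95, with SE 0.13 and an adjusted p of 0.00822.

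Cebpd, which encodes the related factor C/EBPδ that is induced early in acute inflammation, had 110, 112 and 119 CPM under LPS, compared with 32.7, 81.1 and 38.4 CPM under LPS/siponimod. The LPS libraries were close together and all above the LPS/siponimod libraries, of which replicate 2 lay nearest to them. The log2 FC was -1.16 (SE 0.35, 95% confidence interval from -2.01 to -0.32) and its adjusted p of 0.051 missed the threshold narrowly. With the replicate block Cebpd was a DEG (log2 FC -1.29, SE 0.29, adjusted p = 0.0262), and likewise without LPS/siponimod replicate 2 (log2 FC -1.68, adjusted p = 0.00607). When any other single library was left out, Cebpd was not a DEG (log2 FC from -1.17 to -0.93, adjusted p from 0.0788 to 0.154). Nor was it one without both libraries numbered 3 (log2 FC -0.96, adjusted p = 0.173). Because the length of a gene is the same in all libraries, the count of Cebpb per count of Cebpd can be compared between libraries. This quotient was 0.97, 0.61 and 0.83 under LPS and 6.77, 1.73 and 4.38 under LPS/siponimod. These ranges could not overlap, because Cebpb lay higher and Cebpd lower in every LPS/siponimod library than in any LPS library.

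**Figure D2:**
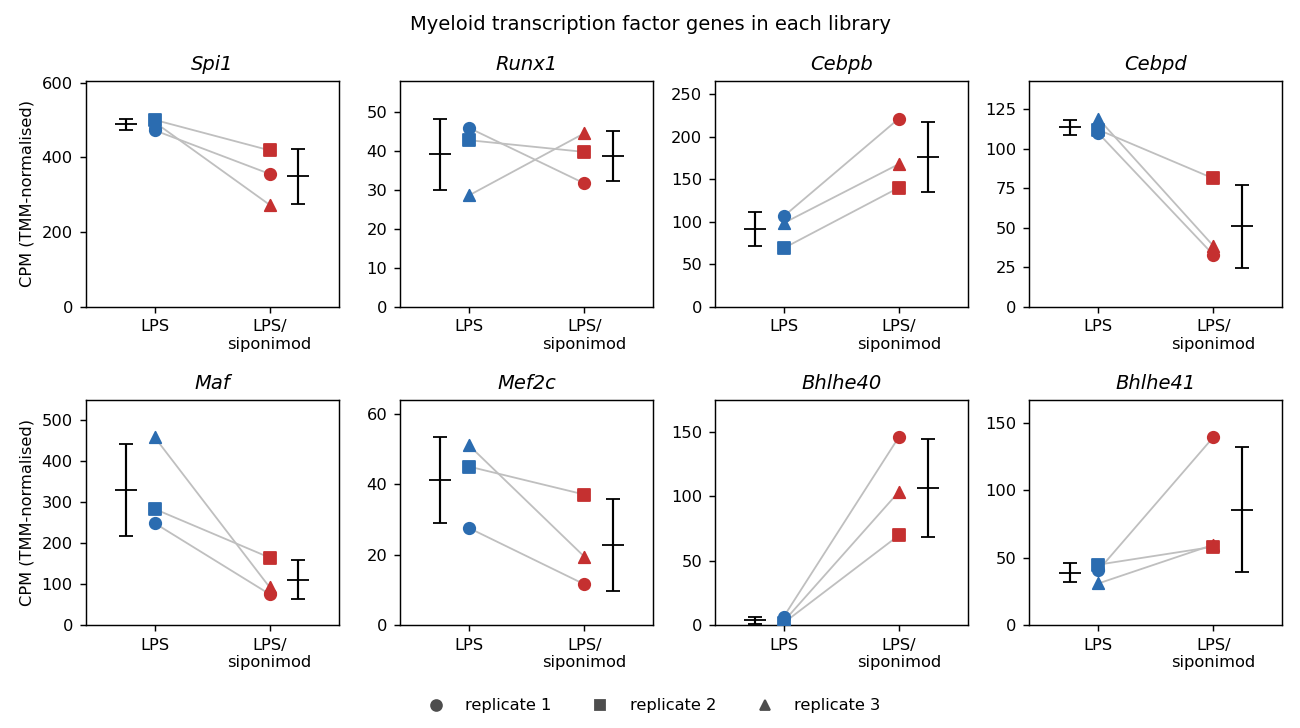
Level of each of the 8 genes in every library, in TMM-normalised CPM (vertical axis, from 0, own scale per gene), for LPS (blue) and LPS/siponimod (red). Grey lines join same-numbered libraries and black bars give mean ± SD (n = 3). Bhlhe40, Bhlhe41 and Cebpb lay higher with LPS/siponimod in every library, Spi1, Cebpd and Maf lower, and Runx1 and Mef2c overlapped.

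Maf encodes c-MAF, a large basic leucine zipper factor of resident macrophages that activates Il10. Its CPM was 249, 283 and 459 in LPS replicates 1, 2 and 3 and 75.2, 164 and 92.1 in LPS/siponimod replicates 1, 2 and 3. No library of LPS/siponimod reached the lowest LPS library, and the highest LPS value belonged to replicate 3. The mean fell from 330 ± 113 to 111 ± 47.4 CPM (SD, n = 3 each), a log2 FC of -1.58 with SE 0.38 and an adjusted p of 0.0278. As for Cebpb, the call was lost when LPS replicate 1 (adjusted p = 0.0506) or 2 (0.0786) or LPS/siponimod replicate 1 (0.106) or 3 (0.0961) was left out, while the log2 FC stayed between -1.99 and -1.26. Without both libraries numbered 3 it was -1.15 (SE 0.41, adjusted p = 0.104).

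Mef2c, which encodes a MADS box factor associated with restrained microglial activation, had 27.5, 45.0 and 51.0 CPM under LPS, compared with 11.6, 37.0 and 19.4 CPM under LPS/siponimod. The groups overlapped, because LPS replicate 1 was below LPS/siponimod replicate 2, although each LPS/siponimod library was below the LPS library of the same number (differences of -1.24, -0.28 and -1.39). The log2 FC was -0.86 (SE 0.45, 95% confidence interval from -1.95 to 0.23, adjusted p = 0.191), and with the replicate block it was -0.97 (SE 0.25, adjusted p = 0.0375), which made Mef2c a DEG. It was also a DEG without LPS/siponimod replicate 2 (log2 FC -1.42, adjusted p = 0.0466), and its adjusted p was 0.50 without both libraries numbered 3.

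Bhlhe40 encodes a repressor that binds E-boxes of the sequence CACGTG and curbs Il10 expression in immune cells. It had 238, 63 and 104 counts in LPS replicates 1, 2 and 3 and 6768, 3102 and 4233 counts in LPS/siponimod replicates 1, 2 and 3. In every LPS/siponimod library the count was thus more than 10 times that of any LPS library. The mean level rose from 3.62 ± 2.50 to 106 ± 38.2 CPM (SD, n = 3 each), a log2 FC of 4.87 with SE 0.60, a 95% confidence interval from 3.42 to 6.32 and an adjusted p of 0.00703. A change at least as large in either direction was fitted for 0.693% of all genes tested, and Bhlhe40 ranked 246 of 11977 by p-value. It remained a DEG in all 6 fits with 1 library left out (adjusted p from 0.00952 to 0.0397) and without both libraries numbered 3 (log2 FC 4.74, adjusted p = 0.0363).

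Bhlhe41, its paralogue, had 40.6, 44.8 and 30.8 CPM under LPS, compared with 139, 58.1 and 59.6 CPM under LPS/siponimod. The groups did not overlap, but LPS/siponimod replicate 1 was more than 2 times as high as the other libraries of its group, and the pair differences were 1.78, 0.37 and 0.95. The log2 FC was 1.15 (SE 0.38, 95% confidence interval from 0.22 to 2.07, adjusted p = 0.0669), and without LPS/siponimod replicate 1 it was 0.60 (adjusted p = 0.126). With the replicate block Bhlhe41 was a DEG (log2 FC 1.03, SE 0.29, adjusted p = 0.0437). Counts of Bhlhe41 per count of Bhlhe40 amounted to 6.32, 27.4 and 11.01 under LPS, compared with 0.96, 0.84 and 0.58 under LPS/siponimod. The ranges of this quotient did not overlap. Counts of Spi1 per count of Runx1, the other quotient formed, were 10.3, 11.7 and 17.3 under LPS. They were 11.2, 10.5 and 6.11 under LPS/siponimod, and these ranges overlapped.

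The promoters of both genes are shown because both hold the motif that their own products bind. They were read by gene name from RefSeq (build GRCr8, another assembly than the one used for mapping), 250 bases before to 50 after the start, 5′ to 3′ on the strand of the gene. Bhlhe40 lies on the plus strand (chr4:143174200-143174499) and Bhlhe41 on the minus strand (chr4:180569306-180569605), and capitals mark the E-box.
Bhlhe40 promoter: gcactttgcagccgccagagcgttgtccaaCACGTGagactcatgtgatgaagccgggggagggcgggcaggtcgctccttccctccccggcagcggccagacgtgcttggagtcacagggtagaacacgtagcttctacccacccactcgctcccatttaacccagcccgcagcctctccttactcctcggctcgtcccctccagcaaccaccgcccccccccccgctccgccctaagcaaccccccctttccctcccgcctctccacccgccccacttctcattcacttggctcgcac
Bhlhe41 promoter: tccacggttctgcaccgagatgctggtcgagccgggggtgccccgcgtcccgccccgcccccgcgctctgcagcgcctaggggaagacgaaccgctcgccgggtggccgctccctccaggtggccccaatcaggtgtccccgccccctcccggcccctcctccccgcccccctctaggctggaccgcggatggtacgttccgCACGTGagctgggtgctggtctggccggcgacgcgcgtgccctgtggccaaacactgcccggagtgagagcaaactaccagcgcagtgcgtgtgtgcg
The E-box began 220 bases before the start of Bhlhe40 and 48 bases before that of Bhlhe41, and it was present in 6.42% of all 33469 windows of this length. A promoter was in the table for 5 of the 8 genes, and those of Cebpb, Maf and Runx1 held no E-box. Another 8 motifs were searched on both strands, GAGGAAGT (PU.1), TTGCGCAA (C/EBP), TGTGGT (RUNX), TGACTCA (AP-1, also the core of the MAF motif), TGACGTCA (the cAMP response element), TGATGCAA and TGATGAAA (composites of C/EBP and ATF) and the MEF2 motif of CTA and TAG around 4 bases of any kind, and none was found in these 5 windows. They were present in 2.42%, 0.17%, 17.3%, 4.63%, 1.83%, 0.795%, 1.13% and 3.84% of all windows. These matches describe letters in a short window and no binding was measured.

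**Figure D3:**
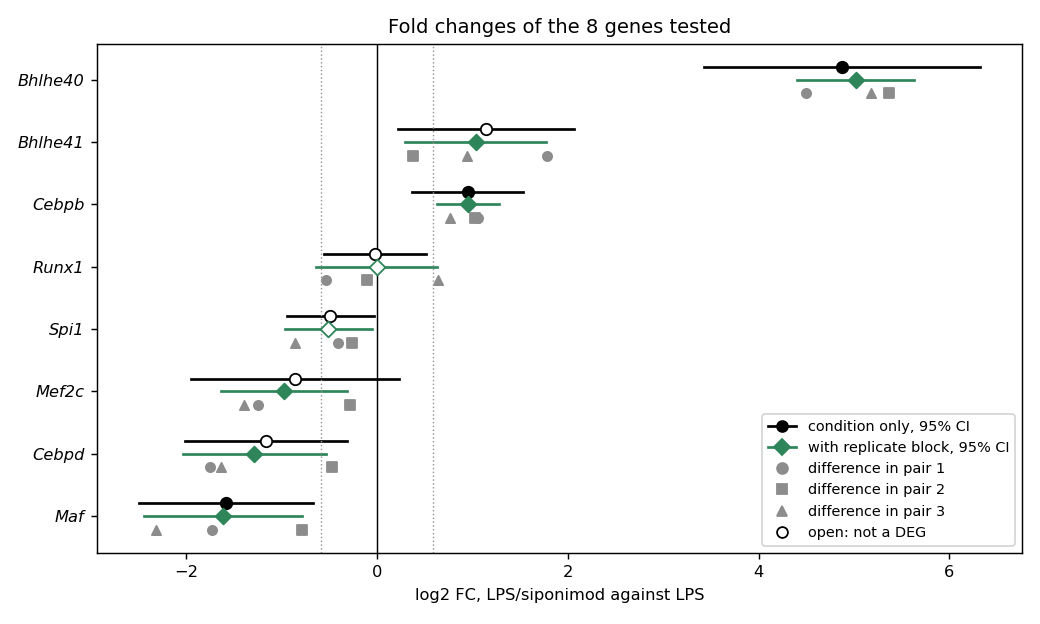
Log2 FC of LPS/siponimod against LPS (horizontal axis) for the 8 genes. Black circles give the fit with condition only and green diamonds that with the replicate block, each with its 95% confidence interval and filled for DEGs, grey symbols give the differences within the 3 same-numbered pairs, and dotted lines mark a fold change of 1.5. With the block 6 genes are filled, without it 3.

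Seen over the 8 genes, the libraries of LPS and LPS/siponimod did not overlap for 6, which compares with 49.3% of all genes tested. For 3 of 8 the LPS/siponimod libraries were all higher (25.3% of all genes) and for 3 of 8 all lower (24%). The pairs did not contribute evenly. The smallest difference was found in pair 2 for 6 of the 8 genes, and over all genes tested this was so in 44.5%. LPS/siponimod replicate 2 also had the highest correlation of log2 CPM with LPS replicates 1, 2 and 3 (0.936, 0.931 and 0.920) among the LPS/siponimod libraries.

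Relatives of these factors from the same protein families were examined next. Of 24 other C/EBP, MAF, RUNX, MEF2 and ETS genes and Cbfb that were tested, 9 were DEGs and all of these were higher with LPS/siponimod, where 13.6% of all genes tested were higher and 11.7% lower. Ddit3, which encodes the C/EBP relative CHOP of the integrated stress response, had 1540, 1030 and 1048 counts under LPS, compared with 15838, 10160 and 10792 under LPS/siponimod (log2 FC 3.11, SE 0.26, adjusted p = 0.0036). Cebpe, which encodes a granulocyte factor, had a log2 FC of -0.27 (SE 0.75, adjusted p = 0.81). The small MAF genes Maff (log2 FC 3.47, SE 0.71, adjusted p = 0.019) and Mafg (0.73, SE 0.13, adjusted p = 0.0139), whose products lack an activation domain, were higher DEGs. Mafa had at most 6 counts per library and Nrl none.

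In the RUNX group, Runx2, a factor best known from bone, had 18, 16 and 9 counts under LPS, compared with 143, 108 and 124 under LPS/siponimod (log2 FC 2.89, SE 0.37, adjusted p = 0.00726), and it remained a DEG in all fits with 1 library left out. Runx3 (log2 FC 0.56, adjusted p = 0.219) and Cbfb (-0.07, SE 0.13, adjusted p = 0.68) were not DEGs. The log2 FC of Mef2d was 0.81 (SE 0.20, adjusted p = 0.03) and that of Mef2b, with at most 39 counts per library, 2.45 (SE 0.71, adjusted p = 0.0458). Mef2a was below the fold change threshold (log2 FC 0.48, SE 0.14, adjusted p = 0.0448). All 3 Mef2c relatives thus had a positive log2 FC, while that of Mef2c was negative, a difference between genes that was not tested. Without LPS replicate 2 or any 1 of the LPS/siponimod libraries none of the 3 was a DEG. In the ETS family, Elk4 (log2 FC 1.13, SE 0.16, adjusted p = 0.00883), Ets1 (2.50, SE 0.48, adjusted p = 0.0159) and Elf1 (0.63, SE 0.16, adjusted p = 0.0339) were the 3 DEGs among 13 tested genes. With 1 library left out, Maff, Mafg and Ets1 each lost their call in 3 of the 6 fits and Elf1 in 5. The 9 DEGs among the relatives became 3 without LPS/siponimod replicate 1 and 4 without LPS replicate 2, in which 6.22% and 5.16% of all genes were DEGs. Spic, the PU.1 relative of iron-handling macrophages, had 156, 190 and 1051 counts under LPS, compared with 100, 225 and 49 under LPS/siponimod (adjusted p = 0.123).

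Of 15 other factors of the blood lineage that were tested, 2 were DEGs, against 25.3% of all genes. Sall1, a factor that marks microglia among macrophages, was the higher DEG (7.50 ± 1.81 against 14.3 ± 3.48 CPM, SD, n = 3 each, log2 FC 0.93, adjusted p = 0.0433) and Tfec, a relative of MITF in macrophages, the lower one (69.9 ± 43.7 against 14.4 ± 4.85 CPM, log2 FC -2.27, adjusted p = 0.0324). The median log2 FC of the list was -0.46. Both calls were lost in 5 of the 6 fits with 1 library left out, and with the replicate block Sall1 was no longer a DEG (adjusted p = 0.0553). Irf8, the partner of PU.1, had 6744, 5126 and 1414 counts under LPS, compared with 1664, 2051 and 777 under LPS/siponimod (log2 FC -1.81, SE 0.61, adjusted p = 0.0679). With the block Irf8 (log2 FC -1.63, adjusted p = 0.0133), Ikzf1 (-0.92, adjusted p = 0.0261) and Lmo2 (-1.36, adjusted p = 0.036) were lower DEGs and Mitf a higher one (1.01, adjusted p = 0.0153), which gave 1 higher and 4 lower of the 15 genes, where 34% of all genes were DEGs.

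Among cofactors and degraders of the 9 factors, 4 of 12 tested genes were higher and 1 was lower (13.6% and 11.7% of all genes). The pseudokinase Trib1 and the ubiquitin ligase Cop1 act together in the degradation of C/EBPα. They moved in opposite directions, Trib1 with a log2 FC of -1.46 (SE 0.32, adjusted p = 0.0235) and Cop1 with 1.62 (SE 0.27, adjusted p = 0.0112). The corepressor gene Tle3 (log2 FC 1.69, SE 0.26, adjusted p = 0.00964) and Hdac4 (1.30, SE 0.25, adjusted p = 0.0162), which encodes a histone deacetylase that binds MEF2 factors, also rose, as did Ncor1 (0.61, SE 0.13, adjusted p = 0.0209). Without LPS replicate 2 none of the 13 genes then tested was a DEG, whereas 5.16% of all genes were.

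In the circadian clock, which BHLHE40 and BHLHE41 inhibit by competing for E-boxes, 5 of 14 tested genes were higher and none lower (13.6% and 11.7% of all genes), with a median log2 FC of 0.52. Ciart, an inhibitor of the CLOCK complex, had 191, 169 and 159 counts under LPS, compared with 811, 597 and 710 under LPS/siponimod (log2 FC 1.80, SE 0.18, adjusted p = 0.00552). The 3 LPS/siponimod libraries lay far above the LPS libraries, and Ciart stayed a DEG whichever library was left out. Clock (log2 FC 0.91, SE 0.14, adjusted p = 0.0103) and the repressor Cry1 (3.02, SE 0.48, adjusted p = 0.0105) rose as well, as did Nfil3 (1.34, adjusted p = 0.0142) and Rora (3.52, adjusted p = 0.0159), the last with at most 9 counts in an LPS library. Arntl, which encodes the partner of CLOCK, had a log2 FC of 0.11 (SE 0.16, adjusted p = 0.629), and Dbp, a common readout of clock output, of -0.41 (SE 0.26, adjusted p = 0.275). Per2 had 432, 572 and 354 counts under LPS, compared with 177, 369 and 136 under LPS/siponimod (adjusted p = 0.0616) and was a lower DEG with the block (log2 FC -1.32, adjusted p = 0.012). Without LPS replicate 2 the number of DEGs in this list was 2 of 14, against 5.16% of all genes.

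Of the growth factors and receptors that act upstream of these factors, 3 of 13 tested genes were higher and 1 was lower (13.6% and 11.7% of all genes). The ligand Csf1 rose from 20.8 ± 10.3 to 274 ± 145 CPM (mean ± SD of 3 libraries each, log2 FC 3.72, adjusted p = 0.0105), whereas its receptor gene Csf1r had 113056, 90149 and 34614 counts under LPS, compared with 29533, 58416 and 20121 under LPS/siponimod (log2 FC -1.38, SE 0.55, adjusted p = 0.106) and was a lower DEG with the block (-1.33, SE 0.35, adjusted p = 0.0375). Within this list Smad4 (log2 FC 0.79, SE 0.12, adjusted p = 0.0096) and Smad3 (1.12, SE 0.30, adjusted p = 0.039), the transducers of TGF-β signals, were also higher, and Csf2rb, the shared receptor chain for GM-CSF, was lower (-0.94, SE 0.20, adjusted p = 0.0204). None of these 4 was a DEG without LPS replicate 2 (5.16% of all genes were), and Smad3 lost its call in each of the 6 fits with 1 library left out.

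Genes known as targets of the factors came last. Of 18 tested PU.1 targets none was higher and 7 were lower (13.6% and 11.7% of all genes), with a median log2 FC of -0.80. Itgam, the integrin chain CD11b, fell from 992 ± 52.0 to 542 ± 27.4 CPM (mean ± SD of 3 libraries each, log2 FC -0.87, SE 0.14, adjusted p = 0.0112), and the Fc receptor gene Fcgr1a (log2 FC -1.30, SE 0.25, adjusted p = 0.0169) and the kinase gene Fgr (-1.45, SE 0.28, adjusted p = 0.0171) fell too. Btk, Itgb2 and Fes were also among the 7. Fes stood at the threshold (adjusted p = 0.04998) with overlapping groups, and was not a DEG with limma-voom or without a filter. Ncf1 (log2 FC -0.03, SE 0.38), Ptprc (-0.02, SE 0.24) and Tyrobp (-0.24, SE 0.21) were not DEGs (adjusted p = 0.955, 0.96 and 0.411). Only 3 of the 18 had a log2 FC above 0, Tlr4 (0.77), Csf2ra (0.25) and Cd14 (0.22). None of these was a DEG either (adjusted p = 0.125, 0.292 and 0.56). Without LPS replicate 2, and likewise without LPS/siponimod replicate 1, none of the 18 was a DEG, where 5.16% and 6.22% of all genes were. Without both libraries numbered 3 there were 2 of 18, against 19.3% of all genes.

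Of 10 tested C/EBP targets 1 was higher and 2 were lower (13.6% and 11.7% of all genes). Ptgs2, which encodes cyclooxygenase-2, had 1430, 1116 and 6935 counts under LPS, compared with 144018, 107198 and 253022 under LPS/siponimod (log2 FC 5.52, SE 0.94, adjusted p = 0.0123). The complement gene C3 (log2 FC -1.74, SE 0.37, adjusted p = 0.0211) and the receptor gene Il6r (-2.30, SE 0.46, adjusted p = 0.0183) fell. Il6 had 543, 235 and 5335 counts under LPS, compared with 2952, 1584 and 3441 under LPS/siponimod, so that it was higher in pairs 1 and 2 and lower in pair 3 (adjusted p = 0.928). Csf3 behaved unevenly as well, with 212, 116 and 8482 counts against 6166, 2436 and 13892 (adjusted p = 0.609). LPS replicate 3 was the highest LPS library for Ptgs2, Il6 and Csf3. The number of DEGs in this list was 0 without LPS replicate 2 and 6 without LPS replicate 3, in which 5.16% and 30.3% of all genes were DEGs, and 5 with the replicate block (34%).

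The 5 tested targets of MAF factors, whose median log2 FC was -1.75, all had log2 FCs below 0, and 1 was a DEG, against 25.3% of all genes. Mrc1, the mannose receptor, had a log2 FC of -2.41 (SE 0.24, adjusted p = 0.0054) and stayed a DEG in every fit with 1 library left out. Il10 had 31.2, 43.8 and 54.9 CPM in the LPS libraries, compared with 8.72, 29.8 and 4.85 CPM under LPS/siponimod, where replicate 2 came close to the lowest LPS value (log2 FC -1.58, SE 0.67, adjusted p = 0.12). C1qa, C1qb and C1qc, which encode the chains of complement C1q, had log2 FCs of -1.75, -1.61 and -1.91 (adjusted p = 0.0901, 0.0566 and 0.0515) and were DEGs with the replicate block (-1.95, -1.74 and -2.06, adjusted p = 0.014, 0.012 and 0.0121), which gave 4 lower DEGs of 5, where 34% of all genes were DEGs in either direction. Some of these genes stand in several lists, such as Csf1r, Csf2ra, Itgam and C1qa, and no list was tested as a whole.

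**Figure D4:**
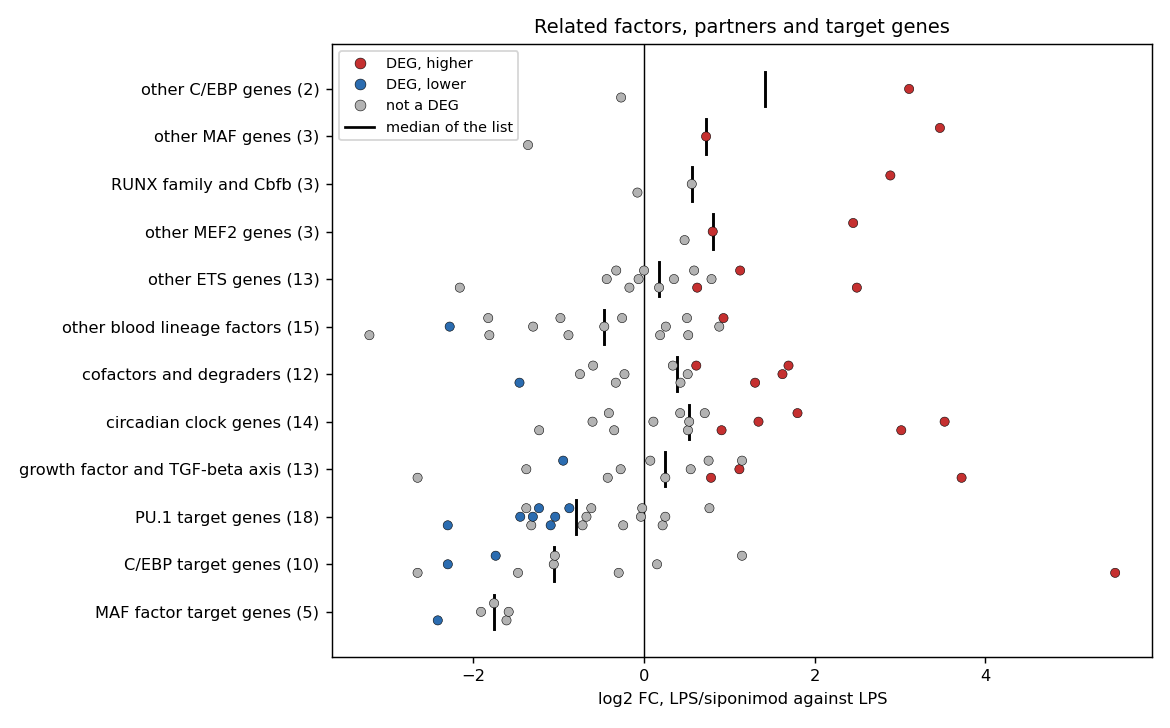
Log2 FC of LPS/siponimod against LPS (horizontal axis) for every tested gene of 12 lists of relatives, partners, upstream factors and targets, with the number of genes tested in brackets. Red and blue points are higher and lower DEGs, grey points are not DEGs and black bars are list medians, from -1.75 for the targets of MAF factors to 1.42 for the 2 other C/EBP genes.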

How the data were processed

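Poly(A)-captured RNA of 3 LPS and 3 LPS/siponimod libraries was sequenced on an Illumina HiSeq. The deposited values are raw total read counts per gene and library. The authors made them with the CLC Genomics Workbench, following demultiplexing and adapter trimming (bcl2fastq 2.20.0.422 per the submitters' processing notes), quality trimming and mapping to rat build mRatBN7.2. The treatment of multi-mapped reads and of strand is not given in the sources used here. An empty row in the table of LPS replicate 1 was dropped.

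Counts were analysed with edgeR 4.0.16 in R 4.3.3. Genes were kept by filterByExpr (minimum count 10, minimum total 15) and scaled by TMM (factors from 0.939 to 1.056). Condition was the only term of glmQLFit and glmQLFTest, p-values were adjusted by Benjamini-Hochberg over all 11977 genes, and SE is the log2 FC divided by the square root of F. Confidence intervals are at 95% and unadjusted. Pair differences used a prior count of 2. On single genes an exact two-sided permutation test of 3 against 3 cannot go below p = 0.1. As no molecular identifiers were used in counting, depth speaks to counting error only.

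Same-numbered libraries deviated together from their group means (correlations of 0.42, 0.545 and 0.611 over genes, against -0.534 to 0.0856 for other numbers), so a second model held the replicate number as a block. The labels do not state a shared preparation. DESeq2 1.42.0, limma-voom (limma 3.58.1), the likelihood ratio test, RLE scaling, 2 other filters and the removal of libraries were alternatives.

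The 9 members, the gene lists and the motifs were written from general knowledge, with earlier results of these data known. All members are named. Of each list up to 3 DEGs per direction with the smallest adjusted p are named, with the members of the C/EBP, MAF, RUNX and MEF2 families. Some genes of the lists are counted but not reported here by name. Cebpg and Mafk were not analysed here. Further genes were chosen after their values were seen (further DEGs of the cofactor, clock and PU.1 target lists, genes outside the DEGs, those called only with the block and the marker genes). The code was tested on simulated data.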

Additional observations from a re-analysis of the deposited data

How the results depend on the processing

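Of the 8 genes, 3 were DEGs as reported (25.3% of all genes) and 6 with the replicate block (34%). DESeq2 (32.5%) and the likelihood ratio test (29.8%) each gave 5. With 1 library left out, 5 were DEGs without LPS/siponimod replicate 2 (23.4%) and 3 without LPS replicate 3 (30.3%). Only 1 was a DEG without LPS replicate 1 (13.9%) or 2 (5.16%), or without LPS/siponimod replicate 1 (6.22%) or 3 (8.5%). Without both libraries numbered 3, a setting chosen after seeing the data, 1 was a DEG (19.3%). RLE scaling (25.6%) and limma-voom (25.9%) gave 4, adding Cebpd, and no filter (14.9%) or a mean of at least 1 CPM (26.5%) gave 3. Over all genes 3036 were DEGs, from 2542 without a filter to 4074 with the block, and from 651 (without LPS replicate 2) to 3713 (without LPS replicate 3) with 1 library left out, 1743 without LPS replicate 1, and 783 and 1035 without LPS/siponimod replicates 1 and 3. The cause was not tested. The direction held under every alternative for 7 of the 8 genes, while the log2 FC of Runx1 ranged from -0.19 to 0.13 with 1 library left out and was -0.31 without both libraries numbered 3. Cebpb ranged from 0.75 to 1.10, Maf from -1.99 to -1.26 and Bhlhe41 from 0.60 to 1.36 with 1 library left out. Of 36 genes of the related lists that were DEGs, 5 remained DEGs in all 6 fits with 1 library left out. The same count was not made over all genes. Of the 3036 DEGs, no more than the 651 called without LPS replicate 2 could remain in all of these fits. Depth limits genes with few counts, such as Mef2b with 1 to 6 and Rora with 2 to 9 counts in the LPS libraries.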
